A study of Homo sapiens with 16 samples.

Results

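Homologous recombination and Fanconi anaemia repair genes were compared between 3D and 2D culture in 8 established human lung cancer cell lines. The 40 genes of this group were taken by symbol, and probe sets assigned to a single gene represented 36 of them, with 79 probe sets, among 14113 genes tested on the array. BRCA2, RBBP8, FANCA and FANCD2 were not analysed here. In 3D the lines H358, H661, H1437, H1703, H460, H23, A549 and A427 grew on a thin Matrigel layer, a basement membrane extract, with 2% Matrigel in the medium. In the 2D group the same lines grew on tissue culture plastic without it. The labels call the 2D cells untreated and name no drug in 3D, and each line gave 1 array per culture, so the 8 lines serve as 8 pairs and no culture was repeated within a line.

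Homologous recombination copies an intact sister chromatid to mend a broken one, and it works mainly in S and G2 phase. MRE11, RAD50 and NBN recognise the break, the kinases ATM and ATR signal it, nucleases resect the ends, and BRCA1, BARD1, PALB2 and BRCA2 load the recombinase. The Fanconi anaemia pathway repairs links between DNA strands: a core ubiquitin ligase with the conjugating enzyme UBE2T marks FANCI and its partner, and recombination completes the repair. Many of these genes are transcribed under E2F factors, together with genes of DNA replication. Cancer cells that lack recombination are known to be sensitive to platinum drugs, which are used in lung cancer.

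No label gives the scale of the deposited values. From the values themselves they were read as log2 ratios of each probe set to a reference of its own, so arrays can be compared for 1 gene and levels of different genes cannot. A gene's value is the mean of its probe sets whose reference is their own median, and the rest, whose median lies under that inferred reference, were left out and are called dim here. All 36 genes had such a probe set. Medians of the 16 arrays ran from -0.28 to -0.07. The 18S rRNA control probe sets were lower in 3D in 8 of 8 lines, at a mean of -0.47 in 3D and 0.68 in 2D, a difference of -1.15 ± 1.06 (SD, n = 8 lines; exact two-sided sign-flip permutation test, p = 0.00781, the smallest this design allows). Epithelial markers EPCAM, KRT8, KRT18, KRT19 and CDH1 were all measured above dim. A gene is called at a Benjamini-Hochberg adjusted p under 0.05 (limma), as 6.09% of all tested genes were. Called were 0 of 5 epithelial, 0 of 3 lung, 0 of 3 tested leukocyte, 0 of 4 fibroblast and 0 of 1 tested endothelial markers. Mean differences of these markers ran from -0.10 (fibroblast) to 1.01 (leukocyte). As ratios, the values cannot show which markers are absent. Summed over the leukocyte markers, arrays ran from -1.35 to 4.59 in 3D and from -1.57 to 3.93 in 2D. Epithelial sums ran from -26.57 to 22.35 in 3D and from -25.02 to 20.03 in 2D.

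Repair genes were lower in 3D. Of 36 genes 16 fell and 0 rose (limma, Benjamini-Hochberg adjusted p under 0.05), or 44.4%, where 6.09% of all tested genes were called, 4.12% lower and 1.97% higher. The median difference over the 36 genes was -0.34 (log2), against -0.01 over all tested genes. Differences lay below 0 for 34 genes, and FANCL (0.13) and MRE11 (0.02) were the other two. Lower values in 8 of 8 lines were found for 14 of the 36 genes, where 4.42% of all tested genes showed this, and in at least 7 lines for 24 genes, where 13.9% did. For 0 of the 36 genes did the 3D arrays all lie below the 2D arrays, as 0.0283% of all genes did. The falls that passed ran from -0.32 for RECQL4 to -0.92 for XRCC2, and 8 of them exceeded 1.5-fold. Because whole cultures were measured, fewer cycling cells and less mRNA per cell cannot be told apart. The number of calls depended on the lines: it was 0 without H1703 (0.0921% of all genes were then called lower), 3 without H460 (0.361%), 4 without H358 (0.517%) and 6 without H23 (0.971%). It was 11 without H661 (1.29%), 13 without A549 (1.69%), 14 without H1437 (4.37%) and 16 without A427 (4.83%). Without H1703, 17 of 14113 genes passed in either direction, the 16 repair genes had adjusted p from 0.0518 to 0.101, and 34 of 36 values stayed below 0.

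**Figure D1:**
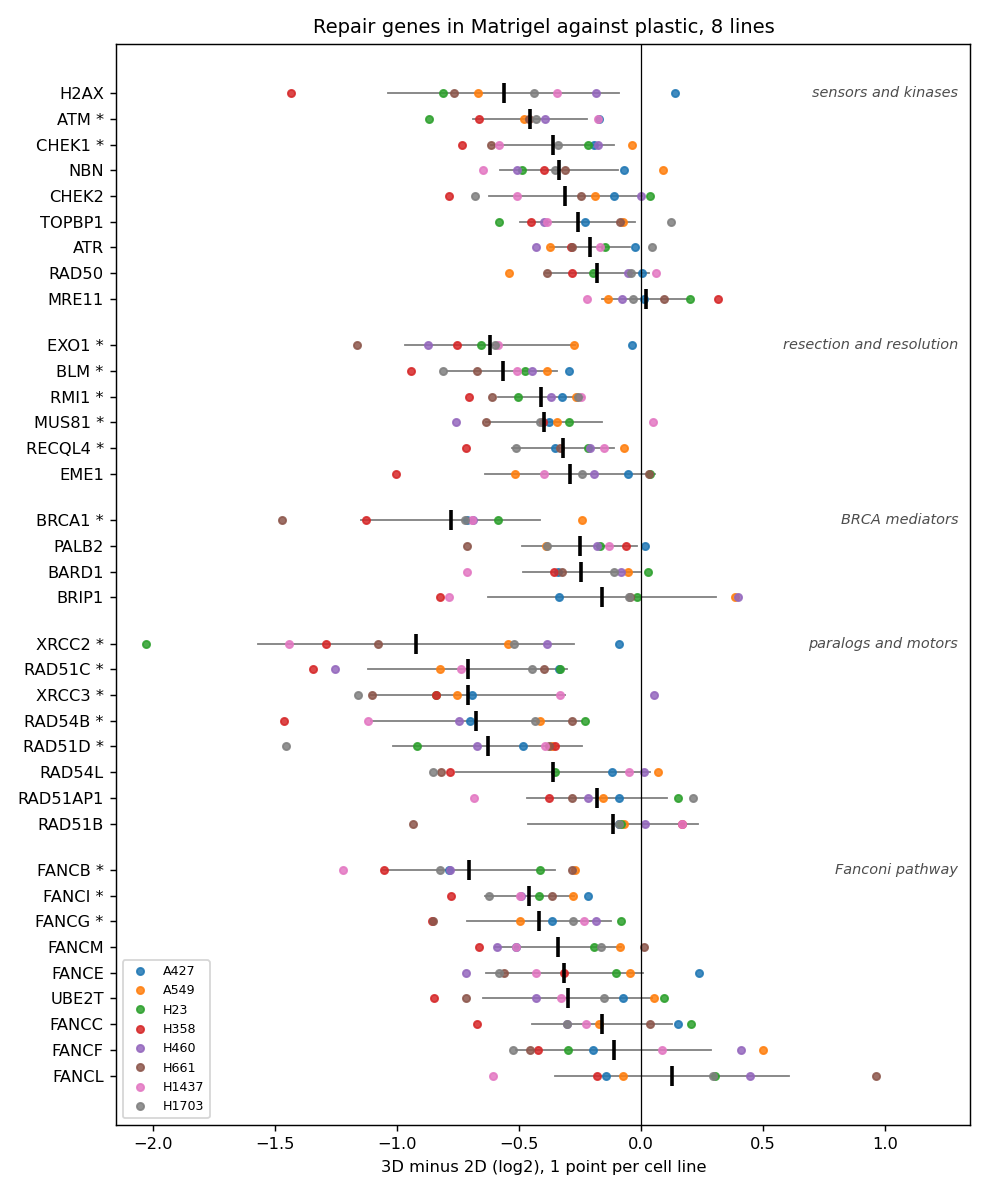
Difference of 3D minus 2D (log2, horizontal axis) for each of 36 repair genes (rows, grouped by role); coloured points are the 8 cell lines, the black tick is their mean, the grey bar is 1 SD to each side, and a star marks the 16 genes called lower. Means lie below 0 for 34 genes, and the lowest single point is XRCC2 in H23 at -2.03.

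BRCA1, the ubiquitin ligase that starts recombinase loading, was the member of the BRCA group that fell. Its levels ran from -1.68 through a median of -0.31 to 0.09 in 3D, against -0.55, 0.39 and 0.81 in 2D. H358 was the lowest line and H1703 the highest in both cultures, so the groups overlap although each line was lower in 3D. The difference was -0.78 ± 0.37 (SD, n = 8 lines; 1.72-fold lower, adjusted p = 0.0187), from -1.47 in H661 to -0.24 in A549. Its 2 probe sets, of suffix x and s, gave -0.89 and -0.67, each called on its own, and none had another suffix. Its partners had smaller differences that did not pass. BARD1, which forms the ligase with BRCA1, stood at -0.24 ± 0.24 (adjusted p = 0.120), at -0.042 with its highest-mean probe set and at -0.43 with the 18S level as a covariate. PALB2, the bridge to the recombinase loader, stood at -0.25 ± 0.24 (adjusted p = 0.110). BRIP1, a helicase bound by BRCA1, had -0.16 ± 0.47, with -0.82 in H358 and 0.40 in H460.

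Of 6 measured genes of end resection and joint resolution, 5 fell, where 4.12% of all tested genes were called lower. EXO1, an exonuclease of long-range resection, ran from -1.27 through -0.21 to 1.42 in 3D, against -0.52, 0.05 and 2.30 in 2D. H460 was the highest line in both cultures, followed by H1437, and A427 hardly moved (-0.04). The difference was -0.62 ± 0.35 (1.54-fold lower, adjusted p = 0.0238), lower in 8 of 8 lines. BLM, a helicase that aids resection and dissolves joined molecules, had the smallest p of all repair genes. Its levels were -0.53, -0.26 and 0.23 (lowest, median, highest) in 3D and -0.11, 0.26 and 0.77 in 2D. The fall was -0.57 ± 0.22 (1.48-fold, adjusted p = 0.0185) and spanned -0.94 in H358 to -0.29 in A427. RMI1, the partner that stimulates BLM, ran from -0.81 through -0.35 to 0.45 in 3D, against -0.51, 0.17 and 0.70 in 2D, a difference of -0.41 ± 0.18 (adjusted p = 0.0213). H1437 was the highest line for RMI1 in both cultures. MUS81, a nuclease that cuts joined molecules, fell by 0.40 (SD 0.24) in 7 of 8 lines, and the helicase RECQL4 fell by 0.32 (SD 0.21) in 8. The call was lost in 9 of 19 alternative settings for MUS81 and in 14 of 20 for RECQL4. EME1, the partner of MUS81, stood at -0.29 ± 0.35 (adjusted p = 0.146), with its lowest difference in H358.

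Recombinase paralogs and motor proteins had the lowest median of any role, -0.65. Of these 8 genes 5 fell, where 4.12% of all tested genes were called lower. XRCC2, a paralog that stabilises the recombinase filament, was measured by a single probe set of suffix x. It ran from -1.21 through -0.65 to 0.22 in 3D, against -0.04, 0.30 and 0.82 in 2D. H23 had the highest XRCC2 level in 2D and the lowest in 3D. The difference was -0.92 ± 0.65 (1.90-fold lower, adjusted p = 0.0291), lower in 8 of 8 lines, and XRCC2 stood at -0.54 with the 18S level as a covariate. Its call was lost in 8 of 19 alternative settings. RAD51C, which joins 2 paralog complexes, ran from -1.07 through -0.42 to 0.04 in 3D, against -0.33, 0.24 and 0.74 in 2D. Its fall of -0.71 ± 0.41 (adjusted p = 0.0222) was largest in H358 and H460. XRCC3, the paralog that pairs with RAD51C, ran from -0.72 through -0.38 to 1.05 in 3D, against -0.54, 0.54 and 1.38 in 2D. H1437 was the highest line in both, and H460 alone was not lower in 3D (0.05). The XRCC3 difference was -0.71 ± 0.40 (adjusted p = 0.0222).

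RAD51D, a paralog bound to XRCC2, spanned -1.44 to 0.96 around a median of -0.41 in 3D, and -1.09 to 1.44 around 0.49 in 2D. H358 was the lowest line and A427 the highest in both cultures. Its fall was -0.63 ± 0.39 (adjusted p = 0.0257), with -1.45 in H1703. RAD54B, a motor protein that remodels recombination intermediates, ran from -0.99 through -0.25 to 0.15 in 3D, against -0.24, 0.33 and 1.12 in 2D. The difference was -0.67 ± 0.43 (adjusted p = 0.0266), lower in 8 of 8 lines and lowest in H358 at -1.46. Its relative RAD54L stood at -0.36 ± 0.40 (adjusted p = 0.119). The filament factor RAD51AP1 had -0.18 ± 0.29 and the paralog RAD51B -0.11 ± 0.35, and neither passed. RAD51B, which also acts in the paralog complexes, ran from -0.49 through 0.00 to 0.93 in 3D, against -0.40, -0.04 and 1.01 in 2D. The value of its difference was 0.0027 without H661, which had -0.94, and -0.72 with its highest-mean probe set.

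**Figure D2:**
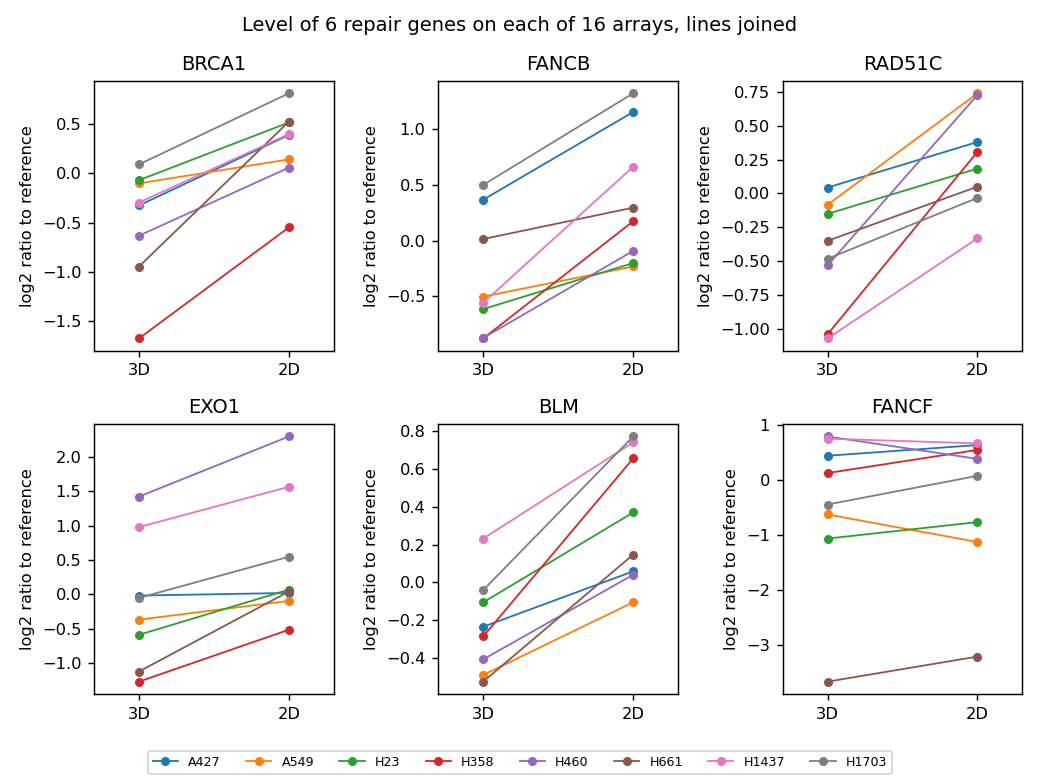
Level (log2 ratio to the gene's reference, vertical axis) of BRCA1, FANCB, RAD51C, EXO1, BLM and FANCF on 16 arrays, with 3D left of 2D and the arrays of a line joined. For the first 5 genes all 8 lines are lower in 3D, and for FANCF the H661 line lies at -3.67 in 3D and -3.21 in 2D, below every other line.

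E2F motifs were sought in the promoters because many of these genes are known E2F targets. Windows of 250 bases before to 50 after a gene's start came from RefSeq (GRCh38.p14), and 32 of the 36 genes had at least 1 window, 43 in all. The letters TTTCCCGC, TTTGGCGC, TTTCGCGC or TTTGCCGC, read on both strands, occurred in 5 of 43 windows (11.6%), those of EXO1, FANCC, RMI1, TOPBP1 and XRCC2, against 3.31% of 35116 windows of all genes. CCAAT, on both strands, occurred in 48.8% of the 43 windows and 34.6% of all, and the CHR letters TTTGAA or TTCGAA in 11.6% and 16.4%. None of these motifs contains another, and a match describes the letters of a window and no binding. Of the 13 called genes with a window, 3 held the E2F letters, while FANCC and TOPBP1 held them and were not called. EXO1 and RMI1 each had another window without these letters. The windows of the 3 genes that both fell and held the E2F letters are shown with those letters in capitals. They lie on the + strand of chromosome 1 for EXO1 (chr1:241847954-241848253), on the - strand of chromosome 7 for XRCC2 (chr7:152676092-152676391) and on the + strand of chromosome 9 for RMI1 (chr9:83980555-83980854).
EXO1: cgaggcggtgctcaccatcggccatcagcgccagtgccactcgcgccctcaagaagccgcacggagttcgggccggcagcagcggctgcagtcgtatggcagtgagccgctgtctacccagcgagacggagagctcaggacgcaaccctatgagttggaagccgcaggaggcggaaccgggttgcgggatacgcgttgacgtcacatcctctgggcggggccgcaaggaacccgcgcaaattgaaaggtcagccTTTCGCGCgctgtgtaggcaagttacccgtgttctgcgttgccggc
XRCC2: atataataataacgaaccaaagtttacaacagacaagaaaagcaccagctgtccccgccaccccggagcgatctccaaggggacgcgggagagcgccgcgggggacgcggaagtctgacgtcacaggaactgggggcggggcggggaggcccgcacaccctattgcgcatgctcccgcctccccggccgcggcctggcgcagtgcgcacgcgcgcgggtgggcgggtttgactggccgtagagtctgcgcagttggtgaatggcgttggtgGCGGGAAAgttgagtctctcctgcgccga
RMI1: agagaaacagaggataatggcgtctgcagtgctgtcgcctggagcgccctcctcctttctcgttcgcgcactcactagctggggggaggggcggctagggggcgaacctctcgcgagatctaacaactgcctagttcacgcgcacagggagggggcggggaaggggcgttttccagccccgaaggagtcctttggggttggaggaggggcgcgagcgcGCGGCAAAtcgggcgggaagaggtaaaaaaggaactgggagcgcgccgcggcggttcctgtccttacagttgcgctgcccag

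Of the 9 measured Fanconi genes 3 fell, where 4.12% of all tested genes were called lower. FANCB, a subunit of the core ligase, ran from -0.88 through -0.53 to 0.50 in 3D, against -0.23, 0.24 and 1.32 in 2D. H1703 and A427 were the highest lines in both cultures. The difference was -0.70 ± 0.35 (1.63-fold lower, adjusted p = 0.0187), from -1.22 in H1437 to -0.27 in A549. Of its probe sets above dim, 2 were called on their own, at -0.83 and -0.82, and the third stood at -0.46. FANCI, which is marked by the core ligase and clamps DNA, ran from -1.06 through -0.14 to 0.50 in 3D, against -0.69, 0.34 and 0.99 in 2D. H661 was the lowest and H1437 the highest line in both. The fall of -0.46 ± 0.18 (1.37-fold, adjusted p = 0.0187) was seen in 8 of 8 lines and on each of its 3 probe sets, at -0.51, -0.46 and -0.41. FANCG, another core subunit, fell by 0.42 (SD 0.30, adjusted p = 0.0429), a call lost in 10 of 20 alternative settings.

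The other Fanconi genes did not pass. FANCM, the DNA translocase that anchors the core complex, had -0.34 ± 0.26 (adjusted p = 0.0554), and passed in 3 of 20 alternative settings, at -0.59 with its highest-mean probe set. FANCE had -0.31 ± 0.32 and FANCC -0.16 ± 0.29. UBE2T stood at -0.30 ± 0.35 (adjusted p = 0.138), with -0.85 in H358 and 0.09 in H23. FANCL, the catalytic subunit of the ligase, ran from -1.05 through 0.28 to 0.74 in 3D, against -0.44, -0.20 and 0.84 in 2D. H1437 was the lowest line in both cultures. The FANCL difference spanned -0.61 in H1437 to 0.96 in H661 around a mean of 0.13.

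FANCF, an adaptor of the core complex, did not differ in a common direction (-0.11 ± 0.40, adjusted p = 0.616) but separated the lines more than any other repair gene. Levels ran from -3.67 through -0.16 to 0.80 in 3D, against -3.21, 0.24 and 0.67 in 2D. H661 held the lowest value in both cultures, and the next line stood at -1.06 in 3D (H23) and -1.12 in 2D (A549). The low H661 value was present on both FANCF probe sets, at -3.83 and -3.51 in 3D and at -3.69 and -2.73 in 2D.

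Lines also differed from each other in the remaining genes. The range of line means, each the average of a line's 3D and 2D array, was 0.40 for FANCC, 4.16 for FANCF and 1.29 in the median over 36 genes, against a median of 1.60 over all tested genes. After FANCF came EXO1 (2.75), the kinase CHEK2 (2.52), RAD51AP1 (2.48) and RAD51D (2.46). In 35 of 36 genes the range over lines exceeded the size of the mean culture difference, with XRCC2 as the exception (0.70), and 99.9% of all tested genes showed the same.

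Among break sensors and checkpoint kinases 2 of 9 fell, ATM and CHEK1, where 4.12% of all tested genes were called lower. H2AX, the histone variant phosphorylated around breaks, had the largest mean difference of this role, -0.56 ± 0.47, but missed the threshold (adjusted p = 0.0507). It passed in 5 of 19 alternative settings, with a lowest adjusted p of 0.0287, and stood at -0.37 with dim probe sets averaged in. Its levels ran from -0.65 through -0.44 to 0.58 in 3D, against -0.32, 0.15 and 1.08 in 2D. A427 was higher in 3D (0.14), and H358 was the lowest of the differences at -1.43. CHEK1, the kinase downstream of ATR, fell by 0.36 (SD 0.25, adjusted p = 0.0454) in 8 of 8 lines, a call lost in 13 of 20 alternative settings. Of its probe sets, 3 were called on their own, at -0.54, -0.53 and -0.41, and the fourth gave 0.02. NBN, the regulatory subunit of the break sensor, stood at -0.34 ± 0.24 (adjusted p = 0.0501). NBN passed in 6 of 20 alternative settings but stood at -0.088 without probe sets of suffixes s and x. RAD50 stood at -0.18 ± 0.21 and MRE11 at 0.02 ± 0.18. CHEK2 had -0.31 ± 0.31, the ATR activator TOPBP1 -0.26 ± 0.24 and ATR itself -0.21 ± 0.17, none of them called.

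ATM, the kinase that signals breaks, passed on its gene mean but its probe sets parted. As a mean of 5 probe sets it ran from -0.80 through -0.30 to 0.32 in 3D, against -0.37, 0.19 and 0.78 in 2D, a difference of -0.46 ± 0.23 (adjusted p = 0.0244). The probe sets of suffix s and x gave -1.37 ± 0.58 and -1.31 ± 0.57, both called and lower in 8 of 8 lines. The other 3 gave 0.05, 0.17 and 0.18, and none was called. Suffix s marks probes shared by several transcripts and suffix x probes that may bind unrelated ones. Without them ATM stood at 0.13 (adjusted p = 0.346), and with the 18S level as a covariate at -0.24. Over the 8 lines the difference of the s probe set went with that of the 18S controls on the same arrays (Pearson's r = 0.90, Spearman's rho = 0.98, and r = 0.94 without H23 and H1437). For the x probe set r was 0.77 (rho = 0.69, and 0.65 without those lines). For the other 3, in the order given, r was 0.19, 0.11 and -0.32, and without those lines -0.35, 0.60 and -0.90. Many such correlations were computed, each on 8 lines. Over the gene means of all measured repair genes, rho with 18S ran from -0.86 (BARD1 and FANCL) to 0.57 (ATM and EXO1). The part of 18S in these values was not tested.

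**Figure D3:**
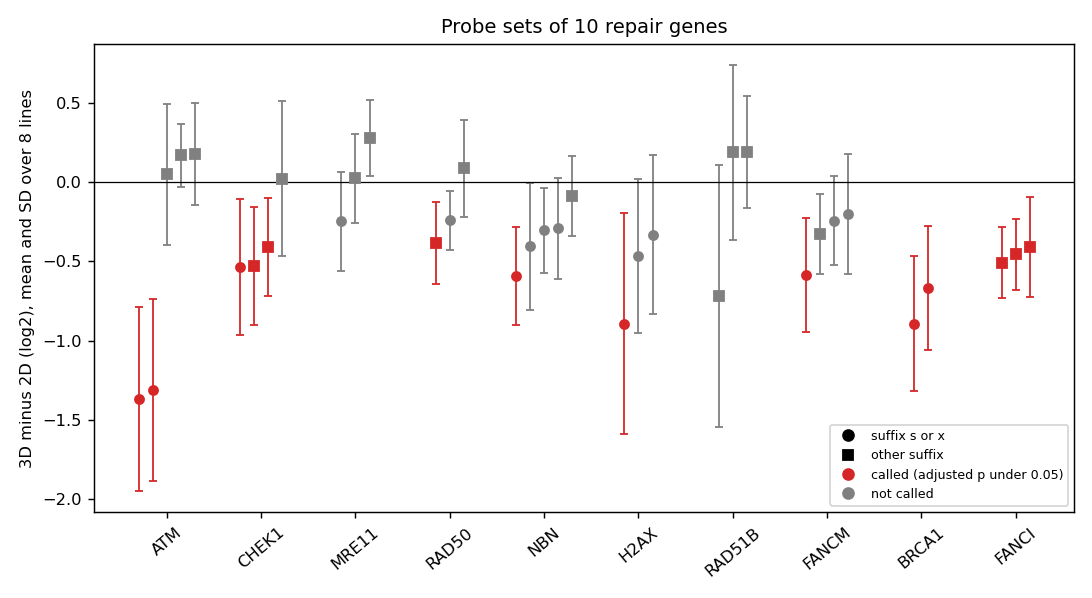
Difference of 3D minus 2D (log2, vertical axis; mean and SD over 8 lines) for each probe set above dim of 10 repair genes. Circles are probe sets of suffix s or x, squares are others, and red marks those called on their own. The 2 lowest points, both circles, belong to ATM, whose 3 squares lie at 0.05, 0.17 and 0.18, while the 3 FANCI squares are all red.

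Probe set by probe set, 64 of 74 repair probe sets above dim lay below 0. The number called lower was 29, in 20 genes, and 0 were called higher, where 5.22% of all such probe sets were called lower and 2.96% higher. Besides ATM, the probe sets of CHEK1, MRE11, RAD50 and RAD51B fell on both sides of 0. For RAD51B one probe set stood at -0.72 ± 0.83, with -2.37 in H661, and the other two at 0.19. With suffixes s and x left out, 11 of the 16 called genes could still be tested and 8 passed, where 3.29% of all genes were called lower, namely BLM, RMI1, EXO1, FANCB, FANCG, FANCI, RAD51D and RAD54B. CHEK1 (-0.30, adjusted p = 0.0588), RECQL4 (-0.32, adjusted p = 0.0502) and ATM did not, and BRCA1, RAD51C, XRCC2, XRCC3 and MUS81 had no other probe set. RAD51D then rested on a single probe set, of suffix r, at -0.78 ± 0.61.

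Line by line, the mean over 36 repair genes was below 0 in 8 of 8 lines, at -0.38 ± 0.14 (SD, n = 8). H358 had the lowest mean, -0.66, and A427 the highest, -0.22. A549 stood at -0.24, H23 and H460 at -0.32 each, H1703 at -0.39, H1437 at -0.44 and H661 at -0.46. With 1 array per culture a single line has no replicate check, so a fall of over 1.5-fold is counted without a test. In H358 22 of 36 genes fell this far, where 9.74% of all genes did. H661 had 14, with 15.5% of all genes, and H1437 had 11, with 5.98%. H460 and H1703 had 9 each, with 7.93% and 6.64% of all genes. H23 had 7 (7.79%), A427 had 4 (3.22%) and A549 had 3 (6.5%). A rise of that size was seen once, for FANCL in H661, where 7.42% of all genes rose as far. The share of all genes that rose so far was 3.22% in A427, 9.08% in A549, 8.93% in H23, 10.5% in H358, 6.63% in H460, 7.91% in H1437 and 4.91% in H1703. The gene with the lowest difference was RAD54B in H358, BRCA1 in H661, XRCC2 in H23 and H1437, RAD51C in A549 and H460, RAD51D in H1703 and FANCB in A427.

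The 18S controls did not follow the same order of lines. H23 had the largest 18S difference, -3.45, and a repair mean of -0.32, while H1437 had the smallest, -0.08, and a repair mean of -0.44. Over the 8 lines Pearson's r between them was -0.13 and Spearman's rho -0.12, and r was 0.18 without H23 and H1437. With the 18S level as a covariate the mean over repair genes was -0.40 and 36 of 36 genes lay below 0. By limma 0 genes of the whole table (0.0%) were called in that fit, with 21 repair genes and 1368 of all 14113 at an unadjusted p under 0.05, and the 16 genes had adjusted p from 0.332 to 0.558. The 18S level was itself lower in 3D in 8 of 8 lines, so that fit cannot fully separate it from culture. With the cell line left out as a block, 0 repair genes and 0.00709% of all genes were called lower.

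Genes of DNA replication and mitosis were lower in the same arrays. Of 30 replication genes 17 fell and 0 rose, with a median of -0.48, and of 24 mitosis genes 12 fell and 0 rose, with a median of -0.53. Over all tested genes 4.12% were called lower and 1.97% higher. GINS4, a subunit of the replicative helicase, fell by 1.02 (SD 0.42), and AURKB, a mitotic kinase, by 0.80 (SD 0.38). Line means of the replication genes ran from -0.86 in H358 to -0.19 in A549. Over the 8 lines they correlated with the repair means at r = 0.92 (rho = 0.95; r = 0.91 without H358 and H661). For mitosis r was 0.76 (rho = 0.71) and 0.42 without H358 and A427. The end joining genes described below gave r = 0.79 (rho = 0.60), and 0.07 without H358 and A427. Other recombination and Fanconi genes gave r = 0.77 (rho = 0.62), and 0.33 without H661 and H358. In A427 the mitosis mean was 0.085 and the repair mean -0.22. These points share their arrays, and the part of cell cycling in the repair values was not tested. A list drawn up here took 13 measured repair genes as rising in S or G2 phase. They are BRCA1, BARD1, BRIP1, BLM, EXO1, CHEK1, FANCI, RAD51AP1, RAD54L, UBE2T, EME1, H2AX and TOPBP1. Of these 13, 5 fell, with a median of -0.36. Of the other 23, 11 fell, with a median of -0.34. Which genes cycle in these lines was not measured, and the difference between the groups was not tested.

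**Figure D4:**
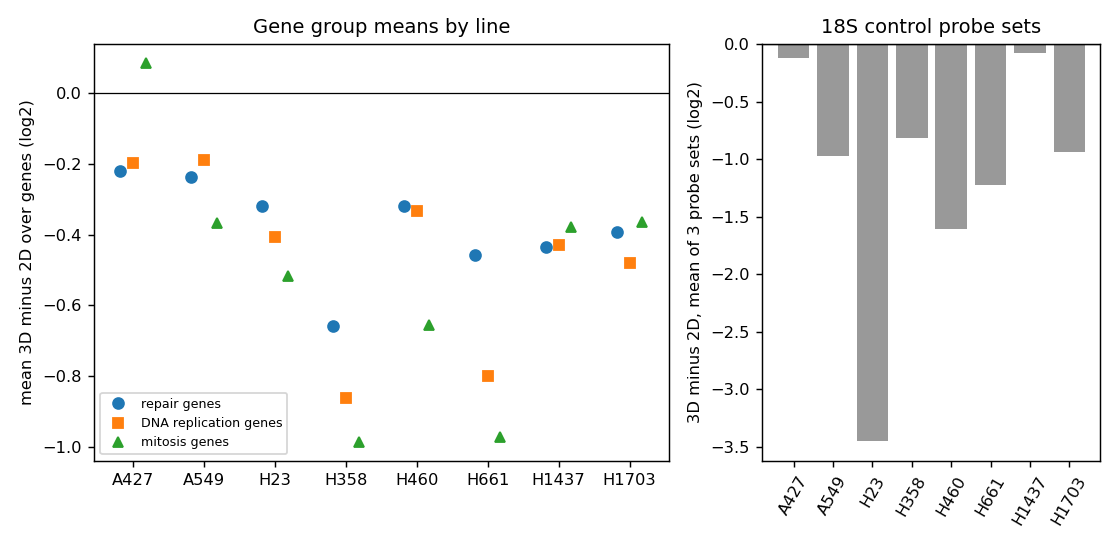
Left, mean 3D minus 2D (log2) over 36 repair genes, 30 DNA replication genes and 24 mitosis genes in each of 8 lines (1 array per culture, so points carry no error bar). Right, the difference of the 18S control probe sets in the same lines. The repair means lie between -0.66 (H358) and -0.22 (A427), and H23 has by far the lowest 18S bar.

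Beyond the 36 genes, 52 other recombination and Fanconi genes were measured, of which 10 fell and 1 rose, with a median of -0.18. For this list and the end joining genes below, the shares over all tested genes were 4.12% called lower and 1.97% higher. RFWD3, a ubiquitin ligase of crosslink repair, fell by 0.98 (SD 0.55), ERCC4, the nuclease that unhooks crosslinks, by 0.66 (SD 0.38), the helicase subunit MCM8 by 0.42 (SD 0.20) and the filament remodeler FIGNL1 by 0.40 (SD 0.14), each in 8 of 8 lines. ETAA1, an activator of ATR, was the gene that rose, by 0.34 ± 0.23 in 8 of 8 lines (adjusted p = 0.0442), and is named here after its value was seen. End joining, which seals breaks without a template, had 2 of 14 genes called, both lower, and a median of -0.16. These were XRCC6, which binds free ends, at -0.68 ± 0.36, and the polymerase POLQ at -0.52 ± 0.26. The difference between end joining and recombination genes was not tested.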

How the data were processed

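RNA of 8 lung cancer lines in 3D and 2D was labelled with biotin from 200 ng and hybridised to the Affymetrix U133 Plus 2.0 array, per the labels' protocols. The deposited values were read as log2 ratios from the values alone, and the reference is inferred. In 63.5% of the 54675 probe sets the median over arrays equals the reference (within 0.001 log2), and in the others it lies under it. The software and normalisation behind them were not stated in any label. Probe sets with 1 gene (41097) were named through the platform annotation and RefSeq (GRCh38.p14), and those not dim were averaged per gene. The mean replaced the probe set with the highest mean ratio, which is no level, as representative.

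Differences were fitted over 14113 genes with limma 3.58.1 in R 4.3.3 (lmFit, eBayes with trend), with cell line as a block, and adjusted by Benjamini-Hochberg over all genes. Pairing comes from the line named in the labels, and deviations from culture means correlated at 0.85 to 0.93 between a line's arrays. Errors are SDs over lines. The limma p-values rest on the spread over 8 lines, with each gene's variance drawn toward a trend over all genes, so they do not follow from the SD alone. On simulated data with 14113 genes, 73.1% of genes changed 1.5-fold and 95.5% of those changed 2-fold were recovered. There, errors were independent between genes and lines, and a changed gene moved alike in all 8 lines. Effects shared by the genes of an array were not simulated, so recovery in the real data may be lower.

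Members, gene lists, motifs and alternatives were chosen with earlier results of these data known. Described in full are the 12 called members of smallest p, the member of largest mean difference in each role and members with a line that stood apart, then up to 4 called genes of each other list. Precision is limited by the number of arrays.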

Additional observations from a re-analysis of the deposited data

Results flagged for a closer look

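A line stood apart from the other 7 of its group, by Dixon's ratio at the 95% level, in 6 of 110 groups of 8 values, where chance flags about 1 in 20. FANCF was lowest in H661 in 3D (-3.67, next line -1.06) and in 2D (-3.21, next line -1.12). FANCL was lowest in H1437 in 3D (-1.05, next line -0.09). XRCC3 was highest in H1437 in 3D (1.05, next line -0.03). The RAD51B difference was lowest in H661 (-0.94, next line -0.09), and the 18S difference was lowest in H23 (-3.45, next line -1.61).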

How the results depend on the processing

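The mean over repair genes, computed under every alternative except the test of single probe sets, lay below 0, from -0.40 to -0.29, within 1 SD of -0.38. The number of genes called, 16, became 8 of 29 testable genes once probe sets with suffix s or x were dropped, 0 with the 18S level as a covariate and 0 with no replicate block, that is with pairing by cell line ignored (limma then called 1 gene of the whole table, and 10 repair genes and 384 of all genes had an unadjusted p under 0.05). Since 18S was lower in 3D in 8 of 8 lines, that covariate overlaps with culture, and 0 genes of the whole table were called with it. Leaving out 1 line at a time gave 0 to 16 calls. All other settings gave 11 to 19, with 1.19% to 5.43% of all genes called lower. Counting genes with a called probe set, an alternative chosen after seeing the data, gave 20. Each of the 16 genes lost its call in some alternative settings, fewest for BRCA1 (3 of 19) and BLM (3 of 20). These counts are no ranking, since not every setting can move every gene. BLM has 1 probe set, so settings that choose or average probe sets leave its value unchanged. BRCA1 could not be tested without suffixes s and x.

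The sign turned in 5 genes. ATM stood at 0.18 with its highest-mean probe set and at 0.13 without suffixes s and x, and RAD50 at 0.087 with its highest-mean probe set. With 18S as a covariate MRE11 stood at -0.067 and FANCL at -0.14. With a line left out, RAD51B ran from -0.155 (without H358) to 0.0027 (without H661), and MRE11 from -0.024 (without H358) to 0.053 (without H1437), with -0.0075 without H23. A value moved by over 1.5 times with its sign kept in 17 genes, 3 of them called: FANCB (-0.46 with its highest-mean probe set), XRCC2 (-0.54 with 18S) and ATM (-0.24 with 18S). The other 14 were not called, among them BARD1, NBN, RAD51B and FANCM. The causes were not tested. The 18S difference ran from -1.31 to -0.82 with a line left out.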
